A study of Mus musculus with 29 samples.

Results

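The proteasome of developing B cells was examined through every entry whose symbol begins with Psma to Psmg and a number. The rule found 50 entries among the 24732 of the mm9 tables, and the same 50 symbols among the 25588 entries of the mm10 tables. The 50 members were sorted by role into 5 immunoproteasome members (Psmb8, Psmb9, Psmb10, Psme1 and Psme2), 14 constitutive core subunits (Psma1 to Psma7 and Psmb1 to Psmb7), 17 subunits of the regulatory particle (Psmc1 to Psmc6 and 11 Psmd genes) and 14 others, which are assembly chaperones, alternative activators, tissue-specific subunits and 1 gene, Psmc3ip, that encodes a recombination factor and no proteasome subunit.

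The proteasome is the barrel-shaped protease that degrades proteins marked with ubiquitin. Its core particle is built of alpha rings, which gate the entry, and beta rings, which carry the catalytic sites of Psmb5, Psmb6 and Psmb7. The regulatory particle caps the barrel, binds ubiquitin chains and unfolds the substrate with the ATPases Psmc1 to Psmc6. In lymphoid cells and under interferon, the subunits Psmb8, Psmb9 and Psmb10 take the places of Psmb5, Psmb6 and Psmb7 and form the immunoproteasome, and Psme1 and Psme2 form the PA28 activator. This form is known for making peptides that MHC class I molecules present.

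The study asked how a PAX5-JAK2 fusion protein causes B cell acute lymphoblastic leukemia, and RNA-seq of normal and Pax5-deficient progenitors was part of it. The genotype comparison used 3 libraries of wild-type pro-B cells and 2 of Pax5(-/-) pro-B cells, all from C57BL/6 mice and sorted from bone marrow without culture. Pax5 is the transcription factor that commits progenitors to the B cell lineage. Another 3 libraries came from pro-B cells labelled Pax5(+/+) Meox2-cre, pooled from C57BL/6 mice at the age of 3 weeks. Meox2-cre expresses Cre recombinase broadly from the Meox2 locus, and the sample table of the study gives these mice as Pax5(+/-). The age of the other mice is not given in the sources used here. According to the methods, both kinds of cell were sorted as B220+ Kit+, but by further surface markers that differed, with Ly6D used for the Pax5-deficient progenitors and the absence of CD2, IgM and IgD for pro-B cells, so that the genotype and the gate cannot be told apart. The labels do not say that the libraries came from separate mice, and p-values then measure only the spread between these samples.

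The values are TPM, a measure of transcript abundance. They are scaled by transcript length and to the same sum in every library, so the depth in reads is unknown. Pax5 itself was listed at 342, 386 and 391 TPM in wild-type and at 43.0 and 39.1 TPM in Pax5(-/-) libraries (log2 fold change -3.17, SE 0.11, adjusted p = 3.1e-06 in limma). Ly6d was listed at 190 to 270 TPM in wild-type and at 2258 to 3033 TPM in Pax5(-/-) libraries. Of other sort markers, Ptprc, which encodes B220, was at 59.3 to 74.0 TPM, Kit at 23.1 to 39.8 TPM and Cd2 at no more than 2.14 TPM in these 5 libraries. The summed level of 7 pro-B markers was 10609 to 12991 TPM in wild-type and 2920 to 2936 TPM in Pax5(-/-) cells. In bulk RNA, fewer cells of a type and less RNA per cell cannot be told apart.

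Markers of other cells were present at low levels. The 5 myeloid markers found (Lyz2, Itgam, Csf1r, Mpo and Elane) summed to 39.3 to 110 TPM in wild-type and 55.1 to 64.0 TPM in Pax5(-/-) libraries. Among them Itgam and Elane were lower (means of 8.47 and 3.17 TPM and of 11.4 and 1.38 TPM, adjusted p = 0.022 and 0.016 in limma), Lyz2 had means of 40.0 and 13.8 TPM, and Mpo had means of 21.6 and 39.9 TPM, neither past the test. The 4 erythroid markers summed to 19.4 to 57.5 and to 4.55 to 9.78 TPM, with Hbb-b1 listed at 0 in every library. The 5 dendritic markers summed to 83.4 to 125 and to 122 to 174 TPM, nearly all of it Bst2, while Xcr1 and Zbtb46 were below 1 TPM in every library. Siglech reached 1.12 TPM in wild-type and 9.06 TPM in Pax5(-/-) libraries. The 6 T and NK cell markers summed to 2.85 to 10.3 and to 5.28 to 7.57 TPM, and Cd3e and Ncr1 were listed at 0 in both Pax5(-/-) libraries. Of these 6, Cd4 was higher, at 0.368 to 0.712 and 3.97 to 5.88 TPM (adjusted p = 0.00086 in limma), and Klrb1c lower, at 2.02 to 8.78 and 1.07 to 1.25 TPM (adjusted p = 0.035). The part of these cells in the results given here was not tested.

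Of the 50 members, 49 had a mean above 1 TPM in at least 1 genotype and were tested among 12066 genes. In Pax5(-/-) cells 6 members were higher and 8 were lower (limma, adjusted p below 0.05), which is 12.2% and 16.3% of the members tested, against 15.6% and 21.5% of all genes tested. The members as a whole were thus called no more often than other genes, except that without wild-type replicate 2 the lower calls made up 22.4% of the members and 16.3% of all genes. Their summed level was 1.07% to 1.18% of all TPM in wild-type and 1.09% in both Pax5(-/-) libraries. The calls fell in different classes. Of the 5 immunoproteasome members, 4 were higher and 0 lower. Of the 14 core subunits, 0 passed the test in either direction in limma, and 1 had an unadjusted p below 0.05. Of the 17 regulatory subunits, 7 were lower and 0 higher. Whether the classes differ from each other was not tested.

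The median log2 fold change (log2 of Pax5(-/-) over wild-type, on the TPM + 0.5 scale) was 0.41 for the immunoproteasome members, -0.08 for the core subunits and -0.29 for the regulatory subunits, beside -0.12 for all genes tested. Since the median gene was itself displaced by -0.12, the 3 classes stood at 0.52, 0.03 and -0.18 relative to it. All changes were small. By the thresholds of the study, a gene must also differ by over 3-fold and exceed a mean of 5 TPM. Under them limma called 0 members higher and 0 lower, against 2.71% and 3.15% of all genes. At an unadjusted p below 0.05 in limma, 6 of the 49 members were higher and 14 lower. This compares with 2331 and 3381 of all 12066 genes tested. The libraries of the genotypes did not overlap for 8 members that were higher and 18 that were lower in Pax5(-/-) cells, against 26.1% and 37.4% of all genes tested. Of these, 4 higher members belonged to the 5 of the immunoproteasome and 14 lower members to the 17 of the regulatory particle.

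**Figure D1:**
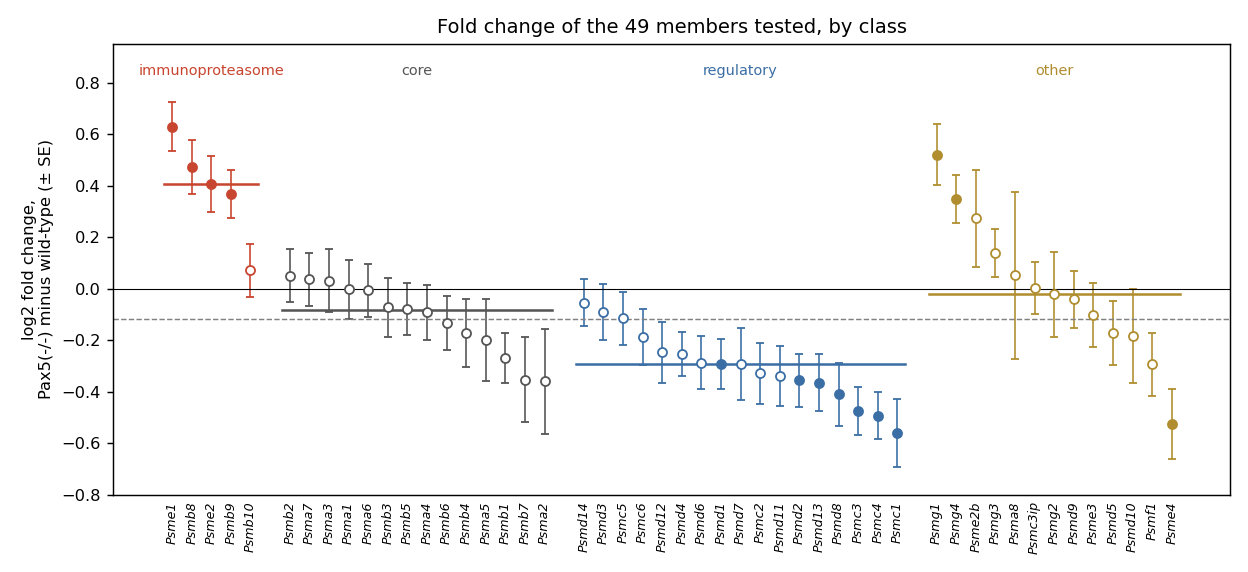
Log2 fold change between Pax5(-/-) and wild-type pro-B cells (y axis, points with SE from limma) for the 49 members tested (x axis), grouped by class. Filled points have an adjusted p below 0.05, coloured lines are class medians (0.41 for immunoproteasome, -0.08 for core and -0.29 for regulatory members) and the dashed line is the median of all genes tested (-0.12). The immunoproteasome points lie above 0 and the regulatory points below it.

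The calls depended on both Pax5(-/-) libraries and on the scaling. Without Pax5(-/-) replicate 1, 1 member was higher and 1 lower, and without replicate 2, 1 was higher and 0 lower, with Psme1 higher in both. The calls over all genes dropped as well, to 6.61% higher and 8.20% lower without replicate 1 and to 5.83% and 6.83% without replicate 2. In those fits the lone Pax5(-/-) library is assumed to vary like the wild-type libraries, and the immunoproteasome median was 0.46 and 0.35 and the regulatory median -0.34 and -0.27. Without wild-type replicate 1, 5 members were lower. When libraries were rescaled by median ratios, which put the median of all genes at -0.01, the same 6 members were higher and 4 of the 8 were still lower, namely Psmc1, Psmc3, Psmc4 and Psme4. With a variance prior that ignores the expression level, 3 were higher (Psmb8, Psme1 and Psmg1) and the same 4 were lower.

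Psme1, the alpha subunit of the PA28 activator, changed most among the immunoproteasome members. It was listed at 517, 529 and 484 TPM in wild-type and at 767 and 812 TPM in Pax5(-/-) libraries. Both Pax5(-/-) libraries lay well above all wild-type libraries, and the log2 fold change was 0.63 (SE 0.09, adjusted p = 0.0021 in limma). Its partner Psme2 was less abundant, at 52.5, 49.3 and 54.9 TPM in wild-type and 66.7 and 72.1 TPM in Pax5(-/-) libraries. The groups did not overlap either (log2 fold change 0.41, SE 0.11, adjusted p = 0.023). Psme2b, an entry of its own for a copy of Psme2, was at 7.75, 9.12 and 7.03 TPM and at 9.20 and 10.2 TPM (adjusted p = 0.29). Reads of such a copy could be split between both entries, so that the level of Psme2 is uncertain.

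Psme1 lies on chromosome 14 at 56196960 to 56200366 on the plus strand of mm9, and Psme2 lies 5911 bases away on the minus strand, in GENCODE M1. Psme1 overlaps Fam158a on the other strand, and its entry is 1 of 5 members whose names carry a mark of the authors that the sources used here do not explain, with Psma4, Psmb5, Psmc3ip and Psme2b. The authors counted with default settings, and reads of such overlaps may not be told apart. The promoter of Psme1 is shown because it holds 2 copies of TTTC on 1 strand with 2 bases between them, the pattern of an interferon-stimulated response element. The window covers 250 bases before and 50 after the start and is taken from RefSeq on GRCm38.p6 (chr14:55578244-55578543, plus strand), with the match in capitals.

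Psme1 promoter: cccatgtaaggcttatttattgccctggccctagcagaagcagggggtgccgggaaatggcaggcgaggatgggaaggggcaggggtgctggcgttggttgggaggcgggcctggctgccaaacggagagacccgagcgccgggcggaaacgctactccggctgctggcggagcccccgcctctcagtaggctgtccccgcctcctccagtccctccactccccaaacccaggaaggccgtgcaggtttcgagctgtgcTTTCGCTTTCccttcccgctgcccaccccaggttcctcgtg

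This tandem pattern, read on both strands, occurred in 1 of 5 immunoproteasome promoters and in 5 of the 42 member promoters given by RefSeq (Psme1, Psmb3, Psmd4, Psmd9 and Psmg4). That is 11.9%, beside 3.99% of the promoters of 27025 genes and 3.72% of those of 8846 genes tested here. Of the 5 genes, Psme1 and Psmg4 were higher in Pax5(-/-) cells and the other 3 did not pass the test.

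Psmb8, the inducible subunit that replaces Psmb5, was the most abundant member by mean level in both genotypes. It was listed at 623, 678 and 576 TPM in wild-type and at 853 and 881 TPM in Pax5(-/-) libraries. The 2 groups were clearly apart, with a log2 fold change of 0.47 (SE 0.10, adjusted p = 0.011). Psmb9, which replaces Psmb6, was at 347, 334 and 324 TPM in wild-type and at 415 and 449 TPM in Pax5(-/-) libraries. It was also higher without overlap (log2 fold change 0.37, SE 0.09, adjusted p = 0.018). Psmb10, which replaces Psmb7, did not pass the test. Its levels of 308, 295 and 265 TPM overlapped with 294 and 312 TPM (log2 fold change 0.07, SE 0.10, adjusted p = 0.61).

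**Figure D2:**
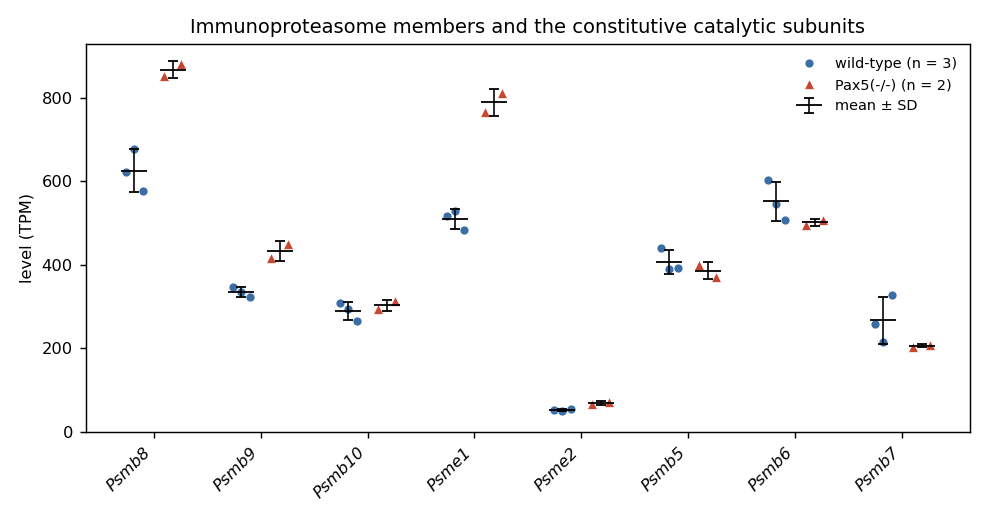
Levels in TPM (y axis, from 0) of the 5 immunoproteasome members and the constitutive catalytic subunits Psmb5, Psmb6 and Psmb7 in each wild-type (circles, n = 3) and Pax5(-/-) library (triangles, n = 2), with mean and SD. Psmb8, Psmb9, Psme1 and Psme2 are higher in both Pax5(-/-) libraries than in any wild-type library. Psmb10, Psmb5 and Psmb6 overlap, and Psmb7 is lower in both Pax5(-/-) libraries.

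Psmb8 and Psmb9 are neighbours in the MHC region, whereas Psmb10 lies on chromosome 8. On mm9, Psmb9 spans 34318932 to 34324697 on the minus strand of chromosome 17 and Psmb8 spans 34334666 to 34338399 on the plus strand. Between them lies Tap1, a subunit of the transporter that carries peptides into the endoplasmic reticulum, at 34324498 to 34334170 on the plus strand. Tap1 and Psmb9 overlap head to head by 200 bases, and 495 bases separate Tap1 from Psmb8. Psmb8 and Psmb10 overlap the entries Gm20496 and Gm16156 on the other strand, and 20 of the 49 members found in this annotation overlap some other gene. The promoter of Psmb9 is shown because 275 of its 300 bases, in capitals, are also in the promoter window of Tap1 on the other strand (RefSeq, GRCm38.p6, chr17:34187281-34187580, minus strand).

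Psmb9 promoter: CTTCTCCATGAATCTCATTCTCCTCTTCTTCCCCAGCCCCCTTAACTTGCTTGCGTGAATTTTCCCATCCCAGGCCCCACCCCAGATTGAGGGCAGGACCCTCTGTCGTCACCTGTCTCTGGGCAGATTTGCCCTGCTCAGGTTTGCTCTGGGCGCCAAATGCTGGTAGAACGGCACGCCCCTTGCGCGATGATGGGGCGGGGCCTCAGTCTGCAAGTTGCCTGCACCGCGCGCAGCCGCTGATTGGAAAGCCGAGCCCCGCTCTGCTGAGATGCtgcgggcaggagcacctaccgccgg

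Both genes that start from this stretch were higher in Pax5(-/-) cells. Tap1 was listed at 120, 141 and 115 TPM in wild-type and at 273 and 301 TPM in Pax5(-/-) libraries (log2 fold change 1.20, SE 0.12, adjusted p = 0.00032), beside 0.37 for Psmb9. Tap2, 2072 bases beyond Psmb8, was at 156, 193 and 159 TPM and at 197 and 199 TPM and did not pass the test (adjusted p = 0.16).

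Of the constitutive catalytic subunits, none passed the limma test, and each had an unadjusted p above 0.05. Psmb5 was listed at 441, 389 and 394 TPM in wild-type and at 401 and 372 TPM in Pax5(-/-) libraries, which overlap (log2 fold change -0.08, SE 0.10, adjusted p = 0.58). Psmb6 was at 602, 546 and 508 TPM and at 496 and 508 TPM (log2 fold change -0.13, SE 0.10, adjusted p = 0.35). Psmb7 was at 258, 216 and 327 TPM and at 203 and 209 TPM, with the widest spread of the 3 among wild-type libraries (log2 fold change -0.35, SE 0.17, adjusted p = 0.13). Its Pax5(-/-) libraries lay below all wild-type libraries.

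The balance within each pair was compared by the ratio of inducible to constitutive TPM. Multiplying all TPM of a library by the same factor does not change this ratio. The Psmb8 to Psmb5 ratio was 1.41, 1.74 and 1.46 in wild-type and 2.13 and 2.37 in Pax5(-/-) libraries. The Psmb9 to Psmb6 ratio was 0.576, 0.612 and 0.638 in wild-type and 0.838 and 0.884 in Pax5(-/-) libraries. Both ratios were higher in each Pax5(-/-) library than in every wild-type library. The genotype means differed by 0.55 and 0.50 on the log2 scale, with 0.5 added to each TPM. The exact two-sided permutation test gave p = 0.1 for each, the smallest value that this design allows, so a threshold of 0.05 is out of reach. The Psmb10 to Psmb7 ratio was 1.19, 1.37 and 0.809 in wild-type and 1.45 and 1.498 in Pax5(-/-) libraries, a difference of 0.42 on the log2 scale (exact permutation p = 0.2). These libraries did not overlap either, but the wild-type ones were widely spread. Without wild-type replicate 3, which had the lowest ratio, this difference was 0.21. In limma with all libraries, Psmb7 changed by -0.35 and Psmb10 by 0.07 on the log2 scale, neither past the test. With the 3 pairs adjusted together, the p-values were 0.15, 0.15 and 0.2 in the order given.

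**Figure D3:**
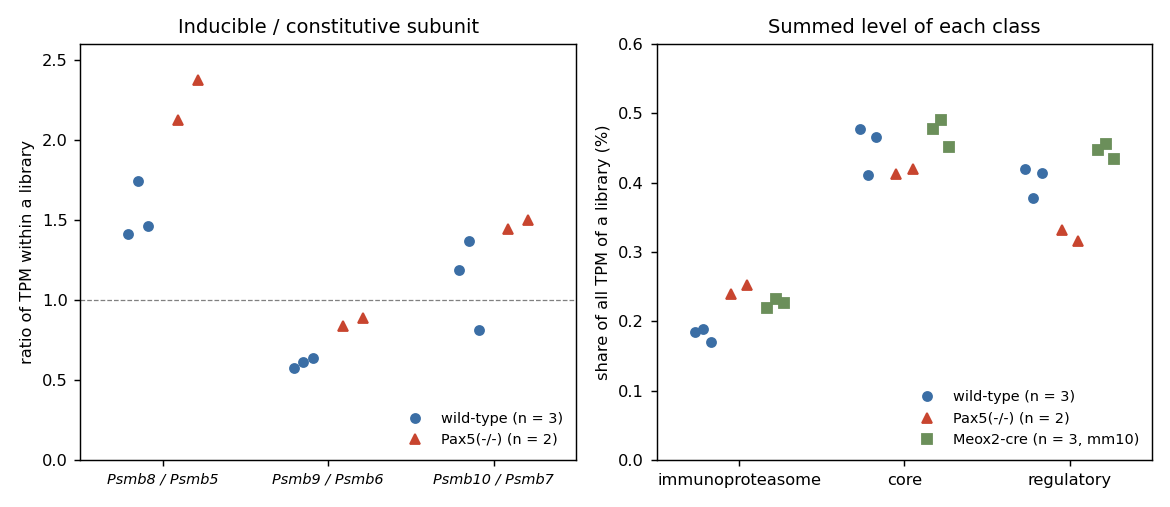
Left, ratio of the TPM of the inducible to that of the constitutive catalytic subunit within each library (y axis, from 0, dashed line at 1) in wild-type (n = 3) and Pax5(-/-) (n = 2) libraries. Right, summed level of each class as a percentage of all TPM (y axis, from 0), with the Meox2-cre libraries (n = 3), which were processed on another build. The immunoproteasome share is 0.170% to 0.189% in wild-type and 0.240% to 0.253% in Pax5(-/-) libraries, and the regulatory share is 0.378% to 0.419% and 0.316% to 0.332%.

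The median change of the core subunits lay close to that of all genes. Their summed level was 0.410% to 0.477% of all TPM in wild-type and 0.413% and 0.420% in Pax5(-/-) libraries, which lie within the wild-type range. Log2 fold changes ran from -0.36 for Psma2 to 0.05 for Psmb2, with SE of 0.10 to 0.20. The libraries of the genotypes overlapped for 12 of the 14, beside 4411 of the 12066 genes tested. The alpha subunits had a median of -0.01 (7 genes, all overlapping) and the beta subunits one of -0.13. Psmb1 came closest to the threshold, at 586, 549 and 605 TPM in wild-type and 459 and 505 TPM in Pax5(-/-) libraries (log2 fold change -0.27, SE 0.10, adjusted p = 0.066). Levels varied between core subunits, from a wild-type mean of 38.7 TPM for Psma3 to 580 TPM for Psmb1, although the ring holds them in equal numbers. Wild-type replicate 2 had the lowest wild-type level for 13 of the 14 core subunits, and without this library Psma2 and Psmb7 passed the test as lower.

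In the regulatory particle, the log2 fold change was below 0 for all 17 subunits, and for 15 of them under median ratio scaling. Without rescaling, 7161 of the 12066 genes tested were below 0 as well. Psmd14, Psmd3 and Psmc5, at -0.054, -0.091 and -0.115, lay above the median of all genes (-0.117). The summed level of the 17 subunits was 0.419%, 0.378% and 0.414% of all TPM in wild-type and 0.332% and 0.316% in Pax5(-/-) libraries, without overlap. The 6 ATPases of the base, which unfold the substrate, had a median log2 fold change of -0.40. Of them, 3 passed the test as lower, which is 50%, beside 21.5% of all genes tested. Psmc4 was listed at 379, 357 and 363 TPM in wild-type and at 270 and 251 TPM in Pax5(-/-) libraries (log2 fold change -0.49, SE 0.09, adjusted p = 0.0052). Psmc3 was at 493, 469 and 505 TPM and at 367 and 338 TPM (log2 fold change -0.47, SE 0.09, adjusted p = 0.0069). For both, the Pax5(-/-) libraries lay far below the narrow wild-type range.

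Psmc1 fell most of all members, from 253, 222 and 295 TPM in wild-type to 180 and 166 TPM in Pax5(-/-) libraries, although its wild-type libraries were more spread (log2 fold change -0.56, SE 0.13, adjusted p = 0.014). Of the other ATPases, Psmc2 was at 115 to 142 and at 103 to 104 TPM and missed the threshold (adjusted p = 0.064), as did Psmc6 at 60.3 to 68.2 and 54.9 to 57.6 TPM (adjusted p = 0.21). Psmc5 was the exception whose libraries overlapped, at 290 to 333 and 274 to 299 TPM (adjusted p = 0.41).

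The scaffold subunits Psmd1 and Psmd2 hold the base together and bind ubiquitin-like domains. Psmd2 was listed at 201, 175 and 198 TPM in wild-type and at 155 and 144 TPM in Pax5(-/-) libraries (log2 fold change -0.35, SE 0.10, adjusted p = 0.031). Psmd1 was at 143, 129 and 142 TPM and at 114 and 111 TPM, just inside the threshold (log2 fold change -0.29, SE 0.10, adjusted p = 0.0497). Neither overlapped between genotypes, but both lost the call under median ratio scaling. Over the other pseudocounts, no filter, the scalings and the libraries left out, the adjusted p ranged from 0.026 to 0.22 for Psmd2 and from 0.046 to 0.25 for Psmd1. The ubiquitin receptor Psmd4 had the smallest spread, at 322 to 332 TPM in wild-type and 271 and 278 TPM in Pax5(-/-) libraries, and missed the threshold (log2 fold change -0.25, SE 0.09, adjusted p = 0.055).

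The lid is a scaffold for the deubiquitinase that removes the ubiquitin chain. Of its 8 Psmd subunits, 2 passed the test as lower, which is 25%, close to the 21.5% of all genes tested. The median log2 fold change of the 8 was -0.29. Psmd8 was listed at 445, 360 and 353 TPM in wild-type and at 287 and 291 TPM in Pax5(-/-) libraries (log2 fold change -0.41, SE 0.12, adjusted p = 0.034). Psmd13 was at 289, 242 and 286 TPM and at 207 and 214 TPM (log2 fold change -0.37, SE 0.11, adjusted p = 0.036). Both were separated by genotype, and both lost the call under median ratio scaling. Psmd14, the deubiquitinase itself, moved least of the whole regulatory particle, at 138 to 148 and 137 to 138 TPM (log2 fold change -0.05, SE 0.09, adjusted p = 0.67). Psmd3, the most abundant of the 8 Psmd lid subunits in wild-type cells, overlapped at 385 to 465 and 390 to 402 TPM (adjusted p = 0.54). The others, Psmd6, Psmd7, Psmd11 and Psmd12, had log2 fold changes of -0.25 to -0.34 and adjusted p of 0.054 to 0.14.

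Wild-type replicate 2 had the lowest wild-type level in 15 of the 17 regulatory subunits. It had the highest wild-type level of 2 immunoproteasome members, Psmb8 and Psme1, and the lowest of Psme2. Without it, 11 members were lower, including 8 regulatory subunits, and 4 were higher, which is 22.4% and 8.16% of the members, against 16.3% and 13.3% of all genes in that fit.

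**Figure D4:**
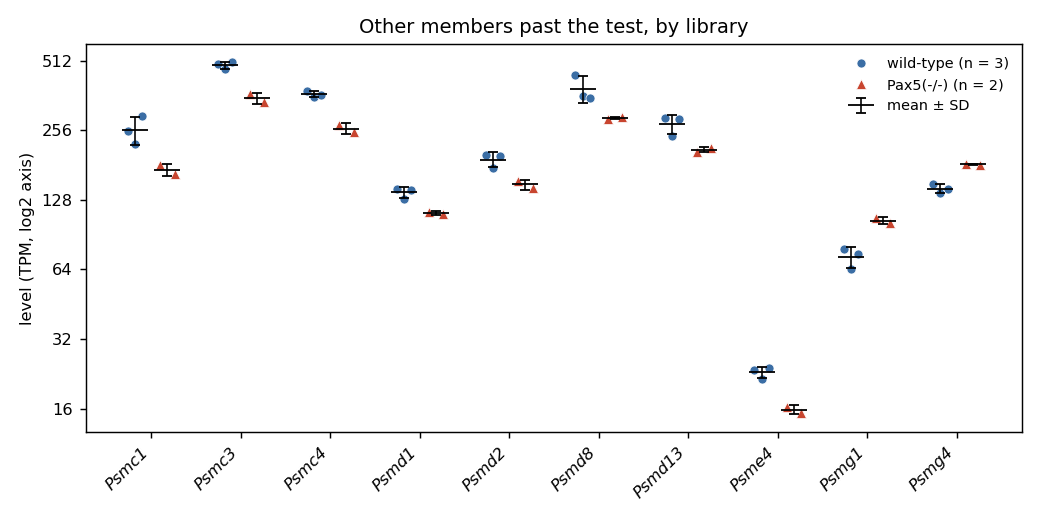
Levels in TPM (y axis, log2 scale) of the 10 members outside the immunoproteasome with an adjusted p below 0.05, in each wild-type (circles, n = 3) and Pax5(-/-) library (triangles, n = 2), with mean and SD. The 7 regulatory subunits and Psme4 are lower, and Psmg1 and Psmg4 higher, in both Pax5(-/-) libraries than in any wild-type library.

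The promoters were also searched for an ETS-type pattern. The letters CCGGAAG, the core of an ETS-type site, were found on either strand in 9 of the 14 regulatory promoters given by RefSeq, which is 64.3%, beside 21.0% of the genes tested and 9.93% of all genes with a promoter sequence. They were found in 1 of 11 core promoters and 0 of 5 immunoproteasome promoters. Within the regulatory class, 3 of 6 subunits past the test held them (Psmc1, Psmd2 and Psmd13) and 6 of 8 of the others. The antioxidant response core TGACNNNGC, the element through which Nfe2l1 acts on proteasome genes, occurred in 6 of 42 member promoters (14.3%), beside 17.2% of the genes tested. These matches, like those of the tandem pattern, are letters in a window and do not show binding. The patterns were chosen with earlier results of these data known. The windows of the strongest and of a weaker falling subunit are shown, on GRCm38.p6 and with the ETS-type letters or their reverse complement in capitals, for Psmc1 at chr12:100109952-100110251 and for Psmd13 at chr7:140882144-140882443, both on the plus strand.

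Psmc1 promoter: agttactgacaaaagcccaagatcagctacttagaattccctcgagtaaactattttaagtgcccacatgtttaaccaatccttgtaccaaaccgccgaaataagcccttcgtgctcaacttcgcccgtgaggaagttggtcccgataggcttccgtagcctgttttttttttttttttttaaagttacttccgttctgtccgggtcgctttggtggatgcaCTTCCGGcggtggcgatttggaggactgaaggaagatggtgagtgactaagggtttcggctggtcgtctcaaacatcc

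Psmd13 promoter: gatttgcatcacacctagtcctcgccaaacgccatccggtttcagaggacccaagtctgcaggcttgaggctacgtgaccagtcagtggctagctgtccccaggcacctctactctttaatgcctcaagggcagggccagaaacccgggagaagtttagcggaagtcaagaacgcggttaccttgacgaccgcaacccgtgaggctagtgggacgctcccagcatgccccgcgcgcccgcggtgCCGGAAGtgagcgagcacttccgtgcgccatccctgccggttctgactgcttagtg

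Among the 14 other members, 13 were tested and 3 passed. The 2 higher make up 15.4% and the 1 lower 7.69% of those tested, beside 15.6% and 21.5% of all genes. As a class they were thus called no more often than other genes. The chaperones that assemble the core particle include Psmg1 and Psmg4. Psmg1 was listed at 78.7, 64.4 and 74.8 TPM in wild-type and at 107 and 102 TPM in Pax5(-/-) libraries (log2 fold change 0.52, SE 0.12, adjusted p = 0.012). Psmg4 was at 150, 137 and 142 TPM and at 183 and 182 TPM (log2 fold change 0.35, SE 0.09, adjusted p = 0.022). Both were higher without overlap. Psmg3, the partner of Psmg4, was at 109 to 117 and at 123 to 124 TPM, also without overlap but not past the test (adjusted p = 0.28). Psmg2, the partner of Psmg1, overlapped at 58.2 to 85.6 and 67.4 to 68.1 TPM (adjusted p = 0.93). The regulatory particle chaperones Psmd5, Psmd9 and Psmd10 had log2 fold changes of -0.04 to -0.18 and overlapped, with adjusted p of 0.31 to 0.80.

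Of the alternative activators and regulators, Psme4, which encodes the nuclear activator PA200, was listed at 23.5, 21.6 and 23.9 TPM in wild-type and at 16.3 and 15.3 TPM in Pax5(-/-) libraries (log2 fold change -0.53, SE 0.14, adjusted p = 0.020). It was lower without overlap. Psme3, the nuclear PA28 gamma, overlapped at 260 to 311 and 244 to 296 TPM (adjusted p = 0.55). The regulator Psmf1 was at 50.0 to 58.0 and at 42.7 to 47.3 TPM (adjusted p = 0.099). The PA28 and PA200 activators thus went in opposite directions, with Psme1 and Psme2 higher and Psme4 lower.

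The tissue-specific subunits were hardly detected. Psmb11, the catalytic subunit of thymic epithelium, was the member not tested, at no more than 0.146 TPM in any of the 5 libraries. Psma8, the alpha subunit of testis, was at 0.660 to 1.37 TPM in wild-type and 0.962 and 1.36 TPM in Pax5(-/-) libraries. Psmc3ip was at 71.3 to 75.9 and 71.3 to 77.1 TPM (adjusted p = 0.98).

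Among genes that work with the proteasome, those past the test were lower. Of the 18 genes on a list of cofactors, assembly factors and ubiquitin genes, 17 were found. In limma 6 were lower and 0 higher (0 higher at an unadjusted p below 0.05). The 6 make up 35.3%, beside 21.5% of all genes, and the median log2 fold change was -0.33. This list, too, was chosen with earlier results of these data known, so its share is given only as a description. Pomp, the maturation factor of the core particle, was listed at 350, 290 and 458 TPM in wild-type and at 244 and 252 TPM in Pax5(-/-) libraries, at the edge of the threshold (log2 fold change -0.54, adjusted p = 0.04997). The ubiquitin shuttle Ubqln2 was at 71.4 to 94.9 and 56.9 to 59.6 TPM (adjusted p = 0.043). Ubqln1 and Shfm1, the smallest lid subunit, also passed the test. Nfe2l1, a transcription factor of proteasome genes, overlapped at 54.0 to 61.0 and 51.6 to 61.6 TPM (adjusted p = 0.89). Under median ratio scaling 1 gene of the list was lower, and 1 was with either Pax5(-/-) library left out.

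Among genes of MHC class I antigen processing, those past the test were higher. Of 14 genes on the list, 5 were higher and 0 lower in limma, with 1 lower at an unadjusted p below 0.05. The 5 make up 35.7%, beside 15.6% of all genes, and the median log2 fold change was 0.23. The list was chosen with earlier results of these data known, so its share is given only as a description. H2-K1, a class I heavy chain, was listed at 614, 974 and 713 TPM in wild-type and at 1861 and 1867 TPM in Pax5(-/-) libraries (log2 fold change 1.31, SE 0.18, adjusted p = 0.0016). B2m, the light chain, was at 1584, 2036 and 1627 TPM and at 3410 and 3747 TPM (log2 fold change 1.04, SE 0.14, adjusted p = 0.0013). Nlrc5, a transactivator of class I genes, was at 7.62, 12.5 and 16.7 TPM and at 31.2 and 29.9 TPM (log2 fold change 1.35, SE 0.29, adjusted p = 0.010). The groups did not overlap for any of them. H2-D1 was the fifth. Irf1 overlapped (adjusted p = 0.40). Class I genes have near-identical relatives, so their counts may be split between entries. With either Pax5(-/-) library left out, 3 genes of the list were higher.

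In the Meox2-cre pro-B cells, processed on mm10 with other software, all 5 immunoproteasome genes were well expressed. Psmb8 was the most abundant member, at 814, 827 and 816 TPM (819 ± 6.8 TPM, SD, n = 3). Psmb9 was at 472, 512 and 520 TPM, Psmb10 at 353, 387 and 387 TPM, Psme1 at 450, 494 and 451 TPM and Psme2 at 97.7, 108 and 91.8 TPM. The libraries were close to each other, with a median coefficient of variation of 5.22% over the members. Immunoproteasome genes made up 0.219% to 0.233%, core genes 0.452% to 0.490% and regulatory genes 0.434% to 0.455% of all TPM. Psmb11 was at no more than 0.027 TPM and Psma8 at 0.821 to 0.887 TPM. Of the antigen processing genes past the test, Tap1 was at 236 to 241 TPM and B2m at 2638 to 2865 TPM. H2-K1 was at 1431 to 1544, Nlrc5 at 21.8 to 26.0 and H2-D1 at 557 to 580 TPM. In every Meox2-cre library each of these genes lay above all mm9 wild-type libraries, with another build and software.

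These levels were not tested against those of the mm9 tables, since single genes differed between the tables in ways that the genotype labels do not give. Psmb5, whose mm9 entry carries the unexplained mark, was at 121, 135 and 133 TPM in the mm10 tables, and Psma3 at 17.1 to 19.0 TPM. The Psmb8 to Psmb5 ratio was 6.12 to 6.70 there, whereas the Psmb9 to Psmb6 ratio was 0.812 to 0.883 and the Psmb10 to Psmb7 ratio 1.13 to 1.43. The ubiquitin gene Ubb showed the same on a larger scale, at 745 to 862 TPM in the mm9 and 9.49 to 11.8 TPM in the mm10 tables. The myeloid markers summed to 160 to 248 TPM in the Meox2-cre libraries, and their part in these levels was not tested.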

How the data were processed

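RNA-seq values of 8 libraries were used. After taking out reads of ribosomal RNA, the authors used TopHat 1.4.1a on mm9 (wild-type and Pax5(-/-)) or STAR 2.4.2a on mm10 (Meox2-cre), counted reads per gene of refGene annotations with featureCounts 1.5.0 and deposited TPM. Each library sums to the same total, so depth is unknown, and low values put the relative depth of the Pax5(-/-) libraries at 0.855 and 1.54 times that of wild-type replicate 1. TPM keep no read counts, and no count model was run.

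For genes whose mean exceeded 1 TPM in either genotype, log2(TPM + 0.5) values were compared with limma 3.58.1 (lmFit, and eBayes with trend) in R 4.3.3, with Benjamini-Hochberg adjustment over all 12066 genes, and the script was tested on simulated data. Ratios were compared by exact two-sided permutation. Members, classes, motifs and gene lists were chosen with earlier results of these data known. Named with all values are the immunoproteasome members, Psmb5, Psmb6, Psmb7, up to 10 other members with adjusted p below 0.05, and up to 4 genes of each list. Other genes are named by class or for the order of levels, some after their values were seen. Paaf1 and Ly6g were not found in the mm9 tables, and Ighm was not matched by symbol and is not reported. Some genes of the lists and sort markers are counted but not reported here by name. The alternatives were other pseudocounts (0.1 and 1), filters, eBayes settings, median ratio or quantile scaling, tables without immunoglobulin and T cell receptor entries, and each library left out in turn, and, for the study's thresholds, a 2-fold limit and the ratio of mean TPM. Coordinates are from GENCODE M1 on mm9 and promoters from RefSeq on GRCm38.p6. The ChIP-seq samples are not analysed here. Python 3.11.15, pandas 2.3.3 and matplotlib 3.10.9 made the tables and figures.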

Additional observations from a re-analysis of the deposited data

How the results depend on the processing

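With 2 Pax5(-/-) libraries, calls near the threshold moved easily. Without a filter on low values, lower calls made up 10% of the members tested and 13.7% of all genes. With quantile normalization they made up 8.16% and 19.6%. Of the 6 members higher in Pax5(-/-) cells, 3 remained with eBayes without trend, and 1 to 6 when each library was left out in turn. Of the 8 lower members, 5 remained without a filter on low values, 4 with eBayes without trend, 4 with median ratio scaling and 4 with quantile normalization, and 0 to 11 were lower when each library was left out. Leaving out a library gave 1 higher member without Pax5(-/-) replicate 1 or 2, and 1 and 0 lower members, and 5 lower ones without wild-type replicate 1. The 3-fold limit called 0 members in each setting, and a 2-fold limit or the ratio of mean TPM called 0 with the other choices kept.

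The median log2 fold change of the immunoproteasome members was 0.52 with median ratio scaling and 0.51 with quantile normalization, that of the core members 0.027 and 0.0091, and that of the regulatory members -0.18 with median ratio scaling. With each library left out, these medians ranged from 0.35 to 0.46, from -0.14 to -0.04 and from -0.39 to -0.26. The log2 differences of the ratios ranged from 0.47 to 0.64 for Psmb8 to Psmb5, from 0.46 to 0.54 for Psmb9 to Psmb6 and from 0.21 to 0.58 for Psmb10 to Psmb7. Psmb5, which was not called, turned to 0.034 with median ratio scaling and 0.013 with quantile normalization.

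Against 6 lower partner genes, 3 were lower with eBayes without trend and 1 with median ratio scaling, and 1 to 5 when each library was left out. Antigen processing genes numbered 3 to 6 higher and 0 to 1 lower with each library left out, and 1 was lower with a filter at 5 TPM. The cause of these changes was not tested. The level of Psmb8 in the Meox2-cre libraries moved by less than its SD without immunoglobulin and T cell receptor entries. No paired analysis was possible because no replicate numbers are shared between groups in the labels, and the order of accession only names them.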
